A study of Mus musculus with 16 samples.

Results

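The 9 genes *C1qa*, *C1qb*, *C1qc*, *Cx3cr1*, *P2ry12*, *Tmem119*, *Csf1r*, *Aif1* and *Trem2*, which in the brain are read mainly from microglia, were followed in the hypothalamus of ASIC1a-/- and WT mice. They were given as a list of gene symbols that was drawn up with earlier results of these data known, although no threshold on their values defined it, and each symbol matched 1 of the 55401 Ensembl gene identifiers in the deposited tables. Whole hypothalamus was collected from male mice on the C57BL/6 background aged 3 months, 4 per group, and RNA-seq libraries were made from 16 mice. The groups were ASIC1a-/- mice at ZT13, WT mice at ZT13, ASIC1a-/- mice at ZT1 and WT mice at ZT1, where ZT counts the hours since lights on, so that ZT13 is early night and ZT1 early morning. The ASIC1a-/- mice lack the acid-sensing ion channel ASIC1a in every cell of the body, and both genotypes came from heterozygous breeding. Each mouse gave 1 library, and no mouse was sampled at both times.

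Microglia are the resident macrophages of the brain. They enter it from the yolk sac in the embryo and renew themselves there, and they depend throughout life on the receptor CSF1R, which binds the cytokines CSF1 and IL-34. Their fine processes survey the tissue, with the chemokine receptor CX3CR1 reading fractalkine from neurons and the purinergic receptor P2RY12 reading nucleotides from damaged or active cells. Microglia are also the main source of complement C1q in the brain, a protein built from the chains A, B and C that tags synapses and debris for removal, while TREM2 senses lipids and drives phagocytosis through the adaptor TYROBP. TMEM119 is a surface protein used to tell microglia from other macrophages, and AIF1, also called IBA1, binds actin and calcium and is the usual stain for microglia.

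The positions below are those of the GENCODE annotation of GRCm38. *C1qb*, *C1qc* and *C1qa* lie beside each other on the minus strand of chromosome 4 within 18.7 kb (chr4:136880129-136898803). *Cx3cr1* spans chr9:119901616-120069879 on the minus strand, and 9 other annotated genes lie inside or across this span. *P2ry12* is at chr3:59216272-59262871 within the opposite-strand gene *Med12l*, *Tmem119* at chr5:113793729-113800516, *Aif1* at chr17:35170991-35176068 and *Trem2* at chr17:48346401-48354147. Whether the counting used strand is not given in the sources used here, so reads could be mixed where genes overlap. This holds for *P2ry12* and *Med12l*, for *Csf1r* and *Hmgxb3*, and for *Cx3cr1* and the genes inside or across its span. Reads shared with near-identical genes were not a concern for these members, since the posterior SD of the count was 0 for all 9 in all 16 libraries, while 18.5% of the 15808 tested genes had a posterior SD above 0 in some library.

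The upstream sequences of 3 members are shown because the results turn on them: *Cx3cr1* was the member that differed between times in both genotypes, *P2ry12* had the smallest time-of-day difference over both genotypes, and *C1qc* had the largest difference between genotypes at ZT1. Each is the 250 bases before the RefSeq gene start (GRCm38.p6), 5′ to 3′ on the gene's strand, and RefSeq promoter sequences were given for 6 of the 9 members. RefSeq and GENCODE starts differ. The *Cx3cr1* window lies inside the GENCODE span of that gene. The *C1qc* window lies partly inside its gene, whose GENCODE span reaches 136893065. Capitals mark matches on either strand to 4 motifs, the PU.1 core GAGGAA of the myeloid factor PU.1, the E-box CACGTG of the clock factors CLOCK and BMAL1, the D-box TTATGTAA of the PAR bZIP factors, and the nuclear receptor core AGGTCA, which ROR and REV-ERB factors and many other receptors bind.
*Cx3cr1* (chr9:120068297-120068546, minus strand): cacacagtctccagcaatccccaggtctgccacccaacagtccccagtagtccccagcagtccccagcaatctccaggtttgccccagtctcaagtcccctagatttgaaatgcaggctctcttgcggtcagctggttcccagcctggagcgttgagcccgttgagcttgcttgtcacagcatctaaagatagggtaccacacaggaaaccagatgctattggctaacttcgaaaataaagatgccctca
*P2ry12* (chr3:59262986-59263235, minus strand): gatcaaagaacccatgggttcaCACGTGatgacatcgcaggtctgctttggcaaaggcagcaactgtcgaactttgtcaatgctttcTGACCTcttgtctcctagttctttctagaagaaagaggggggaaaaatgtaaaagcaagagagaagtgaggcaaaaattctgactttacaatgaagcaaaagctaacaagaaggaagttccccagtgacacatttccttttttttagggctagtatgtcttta
*C1qc* (chr4:136892915-136893164, minus strand): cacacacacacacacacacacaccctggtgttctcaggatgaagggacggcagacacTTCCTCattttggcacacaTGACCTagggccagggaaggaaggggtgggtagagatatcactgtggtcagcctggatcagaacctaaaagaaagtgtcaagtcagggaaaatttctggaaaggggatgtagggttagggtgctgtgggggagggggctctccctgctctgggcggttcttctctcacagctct
The *Cx3cr1* window held none of the 4 motifs. The *P2ry12* window held an E-box at base -228 from the start and the nuclear receptor core on the other strand at -163, and the *C1qc* window held the PU.1 core at -193 and the nuclear receptor core at -174, both on the other strand. Of 32851 RefSeq promoter windows of this length, 23.3% held the PU.1 core, 6.02% the E-box, 0.819% the D-box and 14.0% the nuclear receptor core. Of the 6 members with a sequence, 4 held the PU.1 core (*C1qb*, *C1qc*, *Aif1* and *Trem2*), 4 the nuclear receptor core (*C1qc*, *P2ry12*, *Aif1* and *Trem2*), 1 the E-box and 0 the D-box. A match describes the letters of a window and is not a binding site.

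The library totals were 34888522 to 42326259 counts, and the deposited expected counts of the members were high enough for most of them to be measured to a few percent. *Aif1* had 65 to 115 counts per library and a counting error of 11.1%, *Trem2* had 207 to 288 counts, and the other members had between 417 and 2856 counts. *Asic1*, the targeted gene, differed between the genotypes, but in opposite directions by counts and by TPM. At ZT13 ASIC1a-/- mice had 71.0 ± 0.807 CPM and WT mice 99.2 ± 2.20 CPM of it, and at ZT1 ASIC1a-/- mice had 67.4 ± 2.41 CPM and WT mice 104 ± 1.98 CPM (SD, n = 4 each). CPM here is the rounded expected count scaled to the library total after TMM normalization. On the TPM scale, which divides by the length of the transcripts estimated in each library, ASIC1a-/- mice had 82.7 ± 1.21 TPM and WT mice 66.0 ± 4.51 TPM at ZT13, and ASIC1a-/- mice had 76.9 ± 4.89 TPM and WT mice 65.6 ± 2.93 TPM at ZT1. The genotypes did not overlap on either scale. The values are per gene and do not resolve the deleted part, so they separate the libraries by genotype label without showing loss of the transcript. Among markers of the tissue, all 10 neuronal and all 8 tanycyte and ependymal markers were above the filter on low values. Of 13 blood leukocyte markers 1 was above it, and their summed level was 0.910 to 5.44 TPM over the 16 libraries. All 5 red blood cell markers were above it, with a summed level of 367 to 831 TPM.

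Transcript levels per length placed the members in 4 tiers with ranges that did not overlap. TPM divides the estimated count by transcript length and scales it to the library. *C1qb*, at 50.1 ± 2.75 TPM, and *C1qa*, at 46.0 ± 3.43 TPM, were the highest of the 9 (SD over all 16 libraries, as for the other members here), and *C1qb* was above *C1qa* in 15 of 16 libraries although their ranges overlapped. *Csf1r* followed alone at 35.6 ± 1.78 TPM, with no overlap with the ranges on either side.

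*P2ry12* at 26.2 ± 1.49 TPM, *C1qc* at 24.5 ± 1.84 TPM and *Cx3cr1* at 23.0 ± 2.30 TPM formed the next tier. These neighbours did not separate, since *P2ry12* was above *C1qc* in 12 libraries and *C1qc* above *Cx3cr1* in 10. The lowest tier held *Tmem119* at 12.7 ± 0.986 TPM, *Trem2* at 10.9 ± 0.842 TPM and *Aif1* at 8.57 ± 1.35 TPM, and *Tmem119* was above *Trem2* in all 16 libraries, although their ranges overlapped. *C1qb* stood at the 76.3 percentile and *Aif1* at the 33.3 percentile of the tested genes by mean TPM. Over the libraries *C1qa* made up 37.0 to 40.5%, *C1qb* 39.1 to 43.7% and *C1qc* 18.5 to 22.1% of the summed TPM of the 3 C1q chains. The mean share of *C1qc* was 20.6% in both genotypes at ZT13. At ZT1 it was 20.8% in ASIC1a-/- and 19.4% in WT mice.

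**Figure D1:**
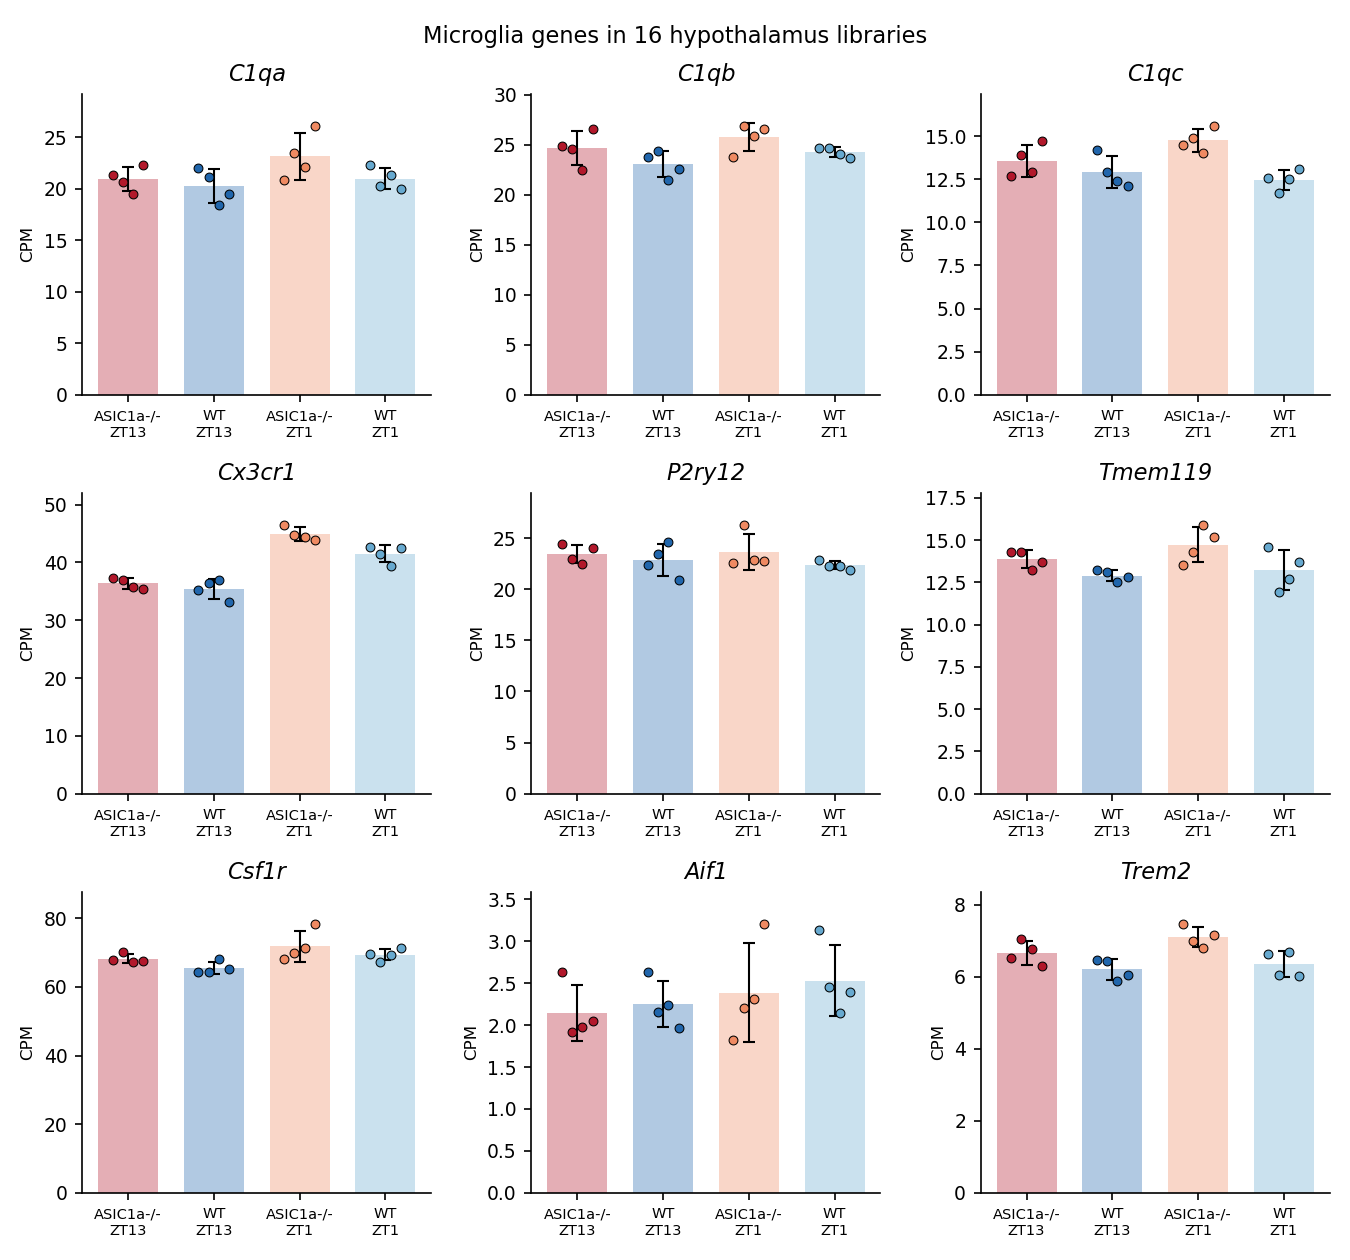
Level of each of the 9 microglia genes in CPM (y axis, from 0), by group (x axis). Points are the 4 libraries of a group, bars are means and error bars are SD. *Cx3cr1* is the gene whose ZT13 libraries (33.1 to 37.3 CPM) all lie below its ZT1 libraries (39.4 to 46.5 CPM), and in the other 8 genes the ZT13 and ZT1 libraries overlap.

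The comparison of ZT13 with ZT1 asks which members differ between early night and early morning. *Cx3cr1*, the fractalkine receptor, was the member with a time-of-day difference in both genotypes. In ASIC1a-/- mice it had 37.3, 36.9, 35.8 and 35.4 CPM at ZT13, against 46.5, 44.8, 44.4 and 43.8 CPM at ZT1. All ZT13 mice were below all ZT1 mice, and the level was 0.811-fold, which is -0.30 on the log2 scale (SE 0.0379, 95% interval -0.38 to -0.22, edgeR quasi-likelihood test, adjusted p = 6.37e-05). In WT mice *Cx3cr1* had 35.2, 36.4, 37.0 and 33.1 CPM at ZT13, against 42.7, 41.5, 39.4 and 42.5 CPM at ZT1. Here too the groups did not overlap, and the level was 0.854-fold, which is -0.23 on the log2 scale (SE 0.0383, 95% interval -0.31 to -0.15, adjusted p = 0.000855). The difference in *Cx3cr1* was past the threshold under every alternative setting in both genotypes, with adjusted p between 3.70e-10 and 0.00105 in ASIC1a-/- and between 1.02e-05 and 0.00414 in WT mice.

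*Cx3cr1* was thus 1 of 9 members called lower at ZT13 in ASIC1a-/- mice, where 4.62% of the 15808 tested genes were called lower, and 1 of 9 in WT mice, where 5.76% were. Libraries at ZT13 that all lay below those at ZT1 were found for 1 of 9 members in each genotype, against 6.89% of tested genes in ASIC1a-/- and 8.68% in WT mice. Over both genotypes, with 8 libraries at each time, 2 of 9 members were called lower and 0 higher, beside 12.1% of all tested genes called lower and 14.3% called higher. The ranges separated for 1 of 9 members, against 2.45% of all genes. These counts of 1 or 2 genes do not set the list apart from other genes. The difference of *Cx3cr1* itself had an adjusted p of 1.95e-06 over both genotypes. In whole tissue, fewer microglia and less of a transcript per microglia cannot be told apart.

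*Csf1r* (chr18:61100598-61132149, plus strand), the receptor for the survival factors CSF1 and IL-34, was the other member called over both genotypes. At ZT13 ASIC1a-/- mice had 67.7, 70.3, 67.3 and 67.6 CPM and WT mice 64.3, 64.2, 68.0 and 65.1 CPM. At ZT1 ASIC1a-/- mice had 68.0, 69.8, 71.3 and 78.4 CPM and WT mice 69.7, 67.2, 69.4 and 71.2 CPM. The ranges overlapped, and the difference was -0.08 on the log2 scale (SE 0.0270, adjusted p = 0.0348 by edgeR). The call did not hold in 17 of 29 alternatives, among them the analysis of TPM and the omission of ASIC1a-/- ZT1 replicate 4, the library at 78.4 CPM, with adjusted p up to 0.380.

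*P2ry12*, the nucleotide receptor on the same surveying processes, had the smallest time-of-day difference of the 9. ASIC1a-/- mice had 24.4, 23.0, 22.5 and 24.0 CPM and WT mice 22.4, 23.4, 24.6 and 20.9 CPM at ZT13. The values at ZT1 were 22.6, 26.3, 22.9 and 22.8 CPM for ASIC1a-/- mice and 22.9, 22.3, 22.3 and 21.9 CPM for WT mice. The groups overlapped throughout, and over both genotypes the log2 fold change was 0.01 with a 95% interval of -0.07 to 0.09. The interval for *Cx3cr1*, -0.32 to -0.21, lies outside that of *P2ry12*.

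Among the C1q chains, *C1qa* had a log2 fold change of -0.10, *C1qb* of -0.07 and *C1qc* of -0.04 between ZT13 and ZT1 over both genotypes, with adjusted p of 0.142, 0.169 and 0.581. *Tmem119* and *Trem2* had a log2 fold change of -0.06 each, and *Aif1* of -0.16 with the widest interval of the 9, -0.42 to 0.10. None of these 6 passed the threshold. The median log2 fold change of the members was -0.07, beside -0.00492 for all tested genes.

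**Figure D2:**
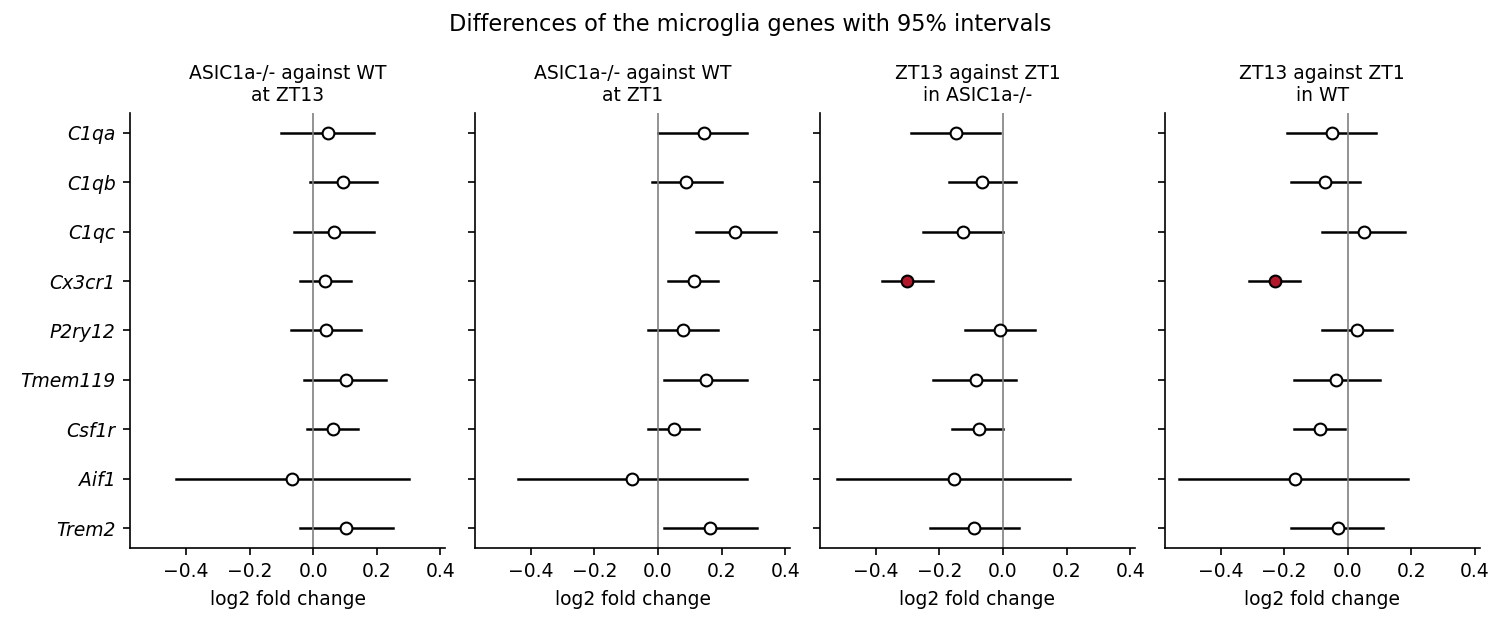
Log2 fold change (x axis) of each of the 9 genes (rows) in 4 comparisons, with 95% intervals as lines. Filled points passed an adjusted p under 0.05 in edgeR. Only *Cx3cr1* is filled, at -0.30 in ASIC1a-/- and -0.23 in WT mice, and *Aif1* has the widest intervals.

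A wider list of 29 other microglia-enriched genes was lower at ZT13 for 11 genes and higher for 0 over both genotypes (edgeR, adjusted p under 0.05), with a median log2 fold change of -0.12. Of all tested genes, 12.1% were called lower and 14.3% higher over both genotypes. Within a genotype, where 4.62% of all tested genes were lower in ASIC1a-/- and 5.76% in WT mice, 6 and 7 of the 29 were. The largest difference among them was in *Olfml3*, which encodes a secreted olfactomedin-like protein, at 15.1 ± 1.41 CPM at ZT13 against 20.0 ± 2.73 CPM at ZT1 in ASIC1a-/- mice (SD, n = 4 each), with a log2 fold change over both genotypes of -0.39 (adjusted p = 7.22e-05). *Bin2* followed at -0.37, *Adgre1*, which encodes the macrophage protein F4/80, at -0.35 and *Fcrls*, an Fc receptor-like gene, at -0.32. *P2ry13*, a nucleotide receptor gene related to *P2ry12*, was lower by a log2 fold change of -0.27 (adjusted p = 0.00199), and *Itgb5*, an integrin chain, by -0.25 (adjusted p = 4.18e-05).

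The remaining 5 were *Slc2a5*, the fructose transporter GLUT5, at -0.30, *Unc93b1*, which carries nucleic acid-sensing Toll-like receptors to endosomes, at -0.29, *Ly86* at -0.22, *Vsir* at -0.17 and *Plxdc2* at -0.12. The call of *Adgre1* (adjusted p = 0.0431) did not hold in 19 of 29 alternatives, whereas *Olfml3*, *Fcrls*, *P2ry13*, *Itgb5* and *Ly86* were called in every one. The number of lower genes was 5 to 12 over the alternatives, with the lowest count, 5, on the log2(TPM + 1) scale without a filter. Of 12 markers of border macrophages, the macrophages of the meninges and vessel sheaths, 6 were above the filter and 0 were called between the times by edgeR or limma-voom, with 1 at an unadjusted p under 0.05 and 1 called by DESeq2 (median log2 fold change -0.09). Their summed level was 7.31 to 17.7 TPM in ASIC1a-/- and 9.73 to 11.4 TPM in WT mice at ZT13, and 8.00 to 19.6 TPM in ASIC1a-/- and 8.22 to 11.3 TPM in WT mice at ZT1.

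Markers of other cell types also differed between the times. Their counts stand beside 12.1% of all tested genes called lower and 14.3% called higher over both genotypes. Over both genotypes, 2 of 10 endothelial markers were higher and 4 lower at ZT13 (median log2 fold change -0.18), 1 of 10 mural cell markers was higher and 4 lower (-0.21), 0 of 6 oligodendrocyte precursor markers were higher and 4 lower (-0.26), 0 of 10 oligodendrocyte markers were higher and 3 lower (-0.05), and 1 of 10 astrocyte markers was higher and 1 lower (-0.03). Of 8 anterior pituitary markers 4 were tested. In WT mice edgeR called 7.52% of all tested genes higher at ZT13. Of the 4 markers it called 3 higher, and DESeq2 and limma-voom each called 2. Among them *Gh*, the growth hormone gene, had 4.31 to 26.7 CPM at ZT13 against 0.253 to 2.67 CPM at ZT1 in WT mice, and *Prl*, the prolactin gene, had 47 to 315 counts per WT library at ZT13 against 5 to 28 at ZT1, while *Cga* had 1 to 3 counts per WT library at ZT1. In ASIC1a-/- mice 0 of the 4 were called by any of these tools, with 1 at an unadjusted p under 0.05. The part of such differences in the values of the microglia genes was not tested.

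**Figure D3:**
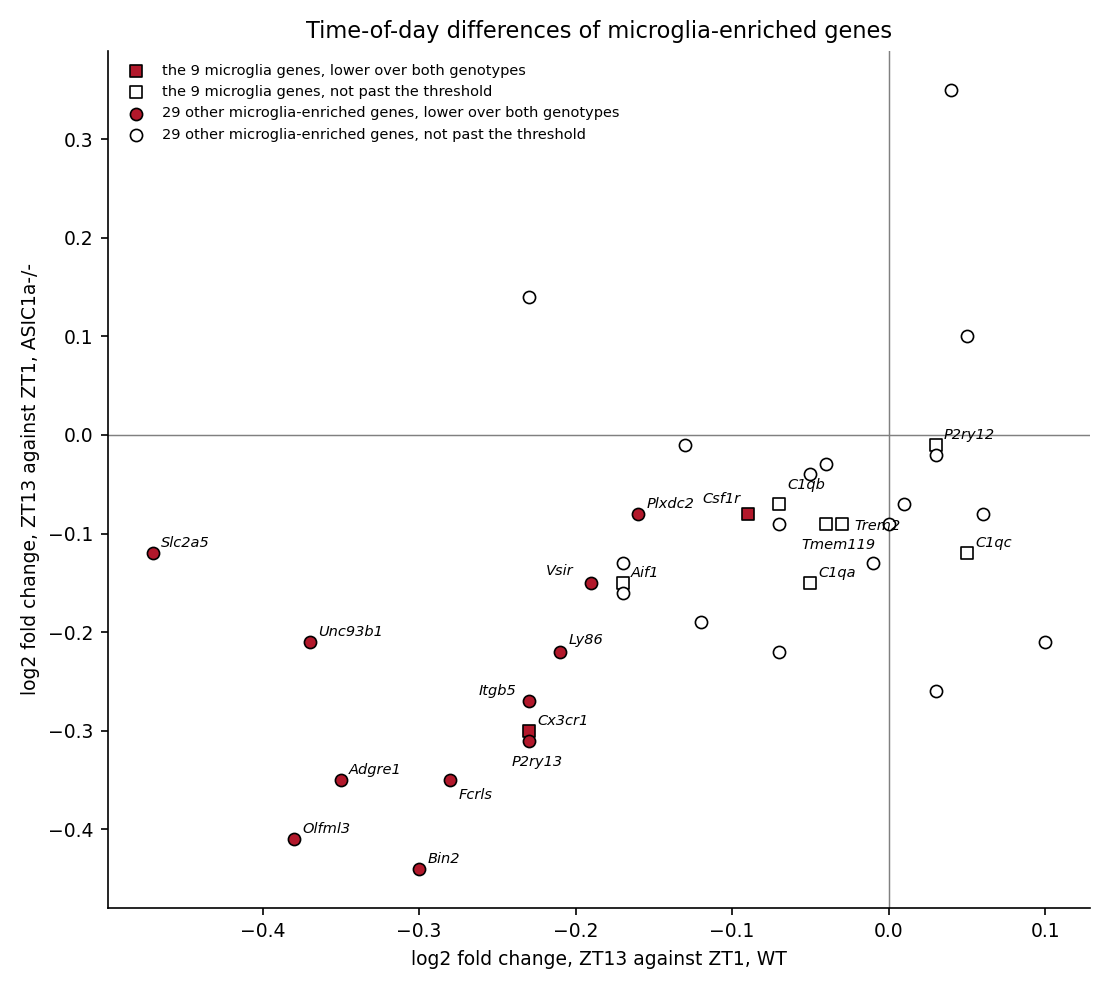
Log2 fold change of ZT13 against ZT1 in WT (x axis) and in ASIC1a-/- mice (y axis) for the 9 microglia genes (squares) and 29 other microglia-enriched genes (circles). Filled symbols were lower over both genotypes at an adjusted p under 0.05, 2 of the 9 and 11 of the 29. *Cx3cr1* lies near *P2ry13*, *Itgb5* and *Fcrls*, while *P2ry12* lies near the origin.

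Ligands and partners of the members differed between the times in both directions. Of 18 listed genes 16 were tested. Over both genotypes 1 was higher and 5 were lower at ZT13, beside 14.3% and 12.1% of all tested genes. The 2 ligands of CSF1R differed in opposite directions. *Csf1* had 36.8 ± 2.47 CPM at ZT13 against 31.7 ± 0.798 CPM at ZT1 in ASIC1a-/- mice, and 36.3 ± 2.31 CPM at ZT13 against 31.2 ± 1.46 CPM at ZT1 in WT mice (SD, n = 4 each), or 0.22 on the log2 scale over both (SE 0.0360, adjusted p = 0.00027). *Il34*, the ligand made mainly by neurons, had 22.8 ± 1.48 CPM at ZT13 against 25.2 ± 0.812 CPM at ZT1 in ASIC1a-/- mice, and 21.3 ± 0.725 CPM at ZT13 against 24.9 ± 1.73 CPM at ZT1 in WT mice, or -0.19 on the log2 scale (SE 0.0363, adjusted p = 0.0011).

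*Cx3cl1*, which encodes fractalkine, the ligand of CX3CR1, was lower at ZT13 over both genotypes, by a log2 fold change of -0.11 (adjusted p = 0.000733). Its level was 291 ± 7.03 CPM at ZT13 against 307 ± 9.04 CPM at ZT1 in ASIC1a-/- mice, and 286 ± 8.34 CPM at ZT13 against 317 ± 10.9 CPM at ZT1 in WT mice (SD, n = 4 each). Within a genotype, edgeR called *Cx3cl1* (adjusted p = 0.00322) and *Il34* (adjusted p = 0.00767) in WT but not in ASIC1a-/- mice. The genotypes were not shown to differ in this, since the interaction was called for 0 of the 16 tested genes of the list. *Tgfbr2*, a receptor chain for TGF-beta, and *Nrros*, which helps microglia to activate TGF-beta, had log2 fold changes of -0.38 and -0.34. *Calr*, an endoplasmic reticulum chaperone that binds C1q when exposed at the cell surface, was the most strongly called of the list, at -0.32 (adjusted p = 6.14e-09). Of 12 transcription factors of microglia 11 were tested. Over both genotypes 2 were higher at ZT13, *Cebpa* at 0.36 and *Bhlhe41*, which is also a clock repressor, at 0.25, and 0 were lower. Of all tested genes 14.3% were called higher.

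**Figure D4:**
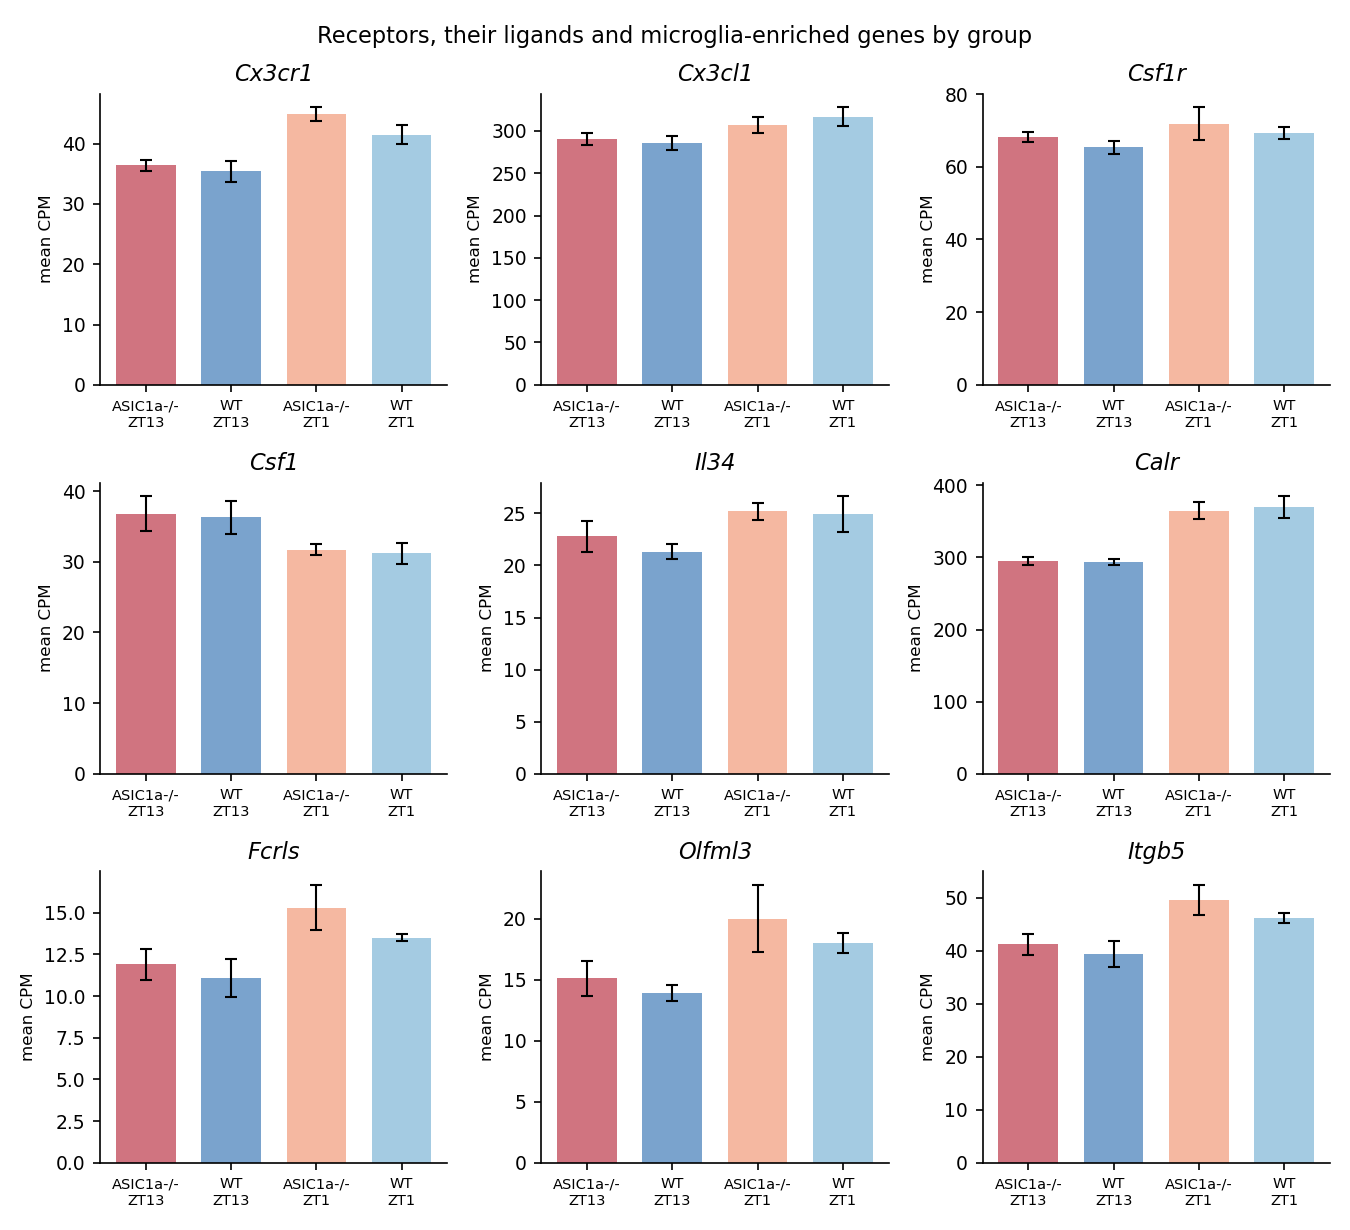
Mean level in CPM (y axis, from 0) of *Cx3cr1*, *Csf1r*, their ligands and selected partners and microglia-enriched genes by group (x axis). Error bars are SD of 4 libraries. *Cx3cr1* and *Cx3cl1* were lower at ZT13, by log2 fold changes of -0.27 and -0.11 over both genotypes, *Csf1* was higher (0.22) and *Il34* lower (-0.19).

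Genes tied to the functions of the members also included some that differed between the times, and their counts stand beside the 12.1% of all tested genes called lower and 14.3% called higher over both genotypes. Of 20 complement pathway genes 16 were tested, with 3 lower at ZT13 over both genotypes, the complement regulators *Cd55* (-0.22), *Clu* (-0.07) and *Cr1l* (-0.12), and 0 higher. *C2*, a component of the classical pathway that C1q starts, had 3.60 ± 0.996 CPM at ZT13 and 3.64 ± 1.53 CPM at ZT1 in ASIC1a-/- mice, and 3.74 ± 0.349 CPM at ZT13 against 2.14 ± 0.446 CPM at ZT1 in WT mice (SD, n = 4 each). It was called higher at ZT13 in WT mice (log2 fold change 0.80, adjusted p = 0.037), but the genotypes were not shown to differ in this (interaction -0.83, adjusted p = 1.00). Of 22 phagocyte activation genes 19 were tested, with 5 lower, *Lgals3* (-0.65), *Gpnmb* (-0.45), *Ctsz* (-0.13), *Cd63* (-0.08) and *Ctsd* (-0.06), and 0 higher. The calls of *Cd55*, *Cr1l*, *Cd63* and *Ctsd* did not hold in 10, 20, 8 and 19 of 29 alternatives.

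Of 20 inflammatory cytokines and sensors 9 cytokine genes, *Tnf*, *Il1b*, *Il1a*, *Il6*, *Ccl2*, *Ccl3*, *Ccl4*, *Ccl12* and *Cxcl10*, were below the filter. Among the 11 tested, *Nfkbia*, the inhibitor of NF-kappaB, was higher at ZT13, at 0.45 on the log2 scale (adjusted p = 6.06e-06), and *Tlr2* was higher at 0.23, a call that did not hold in 20 of 29 alternatives. All 12 interferon-stimulated genes were tested and 3 were higher at ZT13, *Ifit3* at 0.72, *Irf9* at 0.22 and *Stat2* at 0.10, the last not called in 17 of 29 alternatives. The medians of these 4 lists were -0.06, -0.08, 0.04 and -0.06 in the order given, beside -0.00492 for all tested genes.

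The comparison of ASIC1a-/- with WT mice asks whether loss of the channel changes the microglia genes. At ZT13, 0 of 9 members were called (edgeR, adjusted p under 0.05), where 0.101% of tested genes were, and 0 of 9 had an unadjusted p under 0.05, beside 3.74% of all genes. DESeq2 and limma-voom also called 0. The log2 fold change was above 0 in 8 of 9, with a median of 0.06, beside 4.33e-05 for all genes. *C1qb* had 24.9, 24.6, 22.5 and 26.6 CPM in ASIC1a-/- mice, against 23.8, 24.4, 21.5 and 22.6 CPM in WT mice. The groups overlapped, and the 95% interval of the log2 fold change of 0.09, -0.01 to 0.20, included 0. *Tmem119* was the member whose groups did not overlap at ZT13, with 14.3, 14.3, 13.2 and 13.7 CPM in ASIC1a-/- mice, against 13.2, 13.1, 12.5 and 12.8 CPM in WT mice (log2 fold change 0.10, adjusted p = 1.00). Higher values in every ASIC1a-/- mouse were thus found for 1 of 9 members, against 1.29% of tested genes, although the lowest ASIC1a-/- and the highest WT library both round to 13.2 CPM.

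At ZT1, 0 of 9 members were called by edgeR, DESeq2 or limma-voom, where 0.0127% of tested genes were called by edgeR. An unadjusted p under 0.05 with a higher level in ASIC1a-/- mice was found for 5 of 9 members, *C1qc*, *Cx3cr1*, *Tmem119*, *Trem2* and *C1qa*, beside 3.88% of all tested genes. The log2 fold change was above 0 in 8 of 9, with *Aif1* at -0.08, and the median was 0.11, beside 0.000116 for all genes. The count of 5 was 2 without ASIC1a-/- ZT1 replicate 4, 2 without WT ZT1 replicate 2, 2 in a fit of only the 8 libraries compared and 2 on the log2(TPM + 1) scale.

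*C1qc* had the largest of these differences. It had 14.5, 14.9, 14.0 and 15.6 CPM in ASIC1a-/- mice at ZT1, against 12.6, 11.7, 12.5 and 13.1 CPM in WT mice. Every ASIC1a-/- mouse was above every WT mouse, and the level was 1.18-fold, which is 0.24 on the log2 scale (SE 0.0607, 95% interval 0.12 to 0.37), but the adjusted p over all genes was 0.680 by edgeR, and 0.247 to 0.958 over the alternatives. At ZT13 *C1qc* had 12.7, 13.9, 12.9 and 14.7 CPM in ASIC1a-/- mice, against 14.2, 12.9, 12.4 and 12.1 CPM in WT mice, with overlapping groups. The chain genes beside it differed less at ZT1. *C1qa* had 20.8, 23.5, 22.1 and 26.1 CPM in ASIC1a-/- mice, against 22.3, 20.3, 21.3 and 20.0 CPM in WT mice, and its groups overlapped (log2 fold change 0.14, adjusted p = 0.704).

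*Cx3cr1* and *Trem2* also had groups that did not overlap at ZT1, making 3 of 9 members with every ASIC1a-/- mouse higher, against 1.42% of tested genes. *Cx3cr1*, with the ZT1 values given above, had a log2 fold change of 0.11 between genotypes (95% interval 0.03 to 0.19, adjusted p = 0.680). *Trem2*, the lipid-sensing receptor, had 7.47, 7.00, 6.79 and 7.15 CPM in ASIC1a-/- mice, against 6.62, 6.05, 6.69 and 6.02 CPM in WT mice. Its lowest ASIC1a-/- mouse was just above its highest WT mouse, and the log2 fold change was 0.16 (95% interval 0.02 to 0.31, adjusted p = 0.680). *Aif1* varied most between mice, with 1.82, 2.21, 2.31 and 3.21 CPM in ASIC1a-/- mice, against 3.13, 2.45, 2.14 and 2.39 CPM in WT mice at ZT1, and its interval of -0.44 to 0.28 is wider than any difference seen in the other members.

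Over both times, 0 of 9 members were called between the genotypes, where 0.0633% of tested genes were, again with 0 by DESeq2 and limma-voom. With an unadjusted p under 0.05, 5 of 9 were higher in ASIC1a-/- mice, beside 3.90% of all genes. These were *C1qc* (log2 fold change 0.15), *Trem2* (0.13), *Tmem119* (0.13), *C1qb* (0.09) and *Cx3cr1* (0.08), with adjusted p of 0.626 to 0.721. The 29 other microglia-enriched genes had 0 calls between genotypes at either time or over both by edgeR, DESeq2 or limma-voom. An unadjusted p under 0.05 was found for 2 of them at ZT13, 7 at ZT1 and 7 over both times. The shares of all tested genes, in either direction, were 3.74%, 7.0% and 6.8%. A log2 fold change above 0 over both times was found for 28 of the 29 (median 0.06). That number was 23 without ASIC1a-/- ZT1 replicate 4 and 24 without both libraries high in meningeal markers. The smallest p among them was that of *Fcgr3*, an Fc receptor gene, with a log2 fold change of 0.20 and an adjusted p of 0.704.

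Small positive differences between genotypes were also found among markers of other cells. Of 10 oligodendrocyte markers all 10 had a log2 fold change above 0 between genotypes at ZT13 (median 0.06), at ZT1 (0.11) and over both times (0.09), and of 10 endothelial markers 10 did at ZT13 (0.16), 6 at ZT1 (0.02) and 10 over both times (0.09). By edgeR, DESeq2 and limma-voom 0 of either list were called. In each comparison 0 to 2 of each list had an unadjusted p under 0.05 by edgeR, beside 3.74 to 7.0% of all tested genes. Neuronal markers had medians of 0.01 at ZT13 and -0.01 at ZT1, and astrocyte markers of 0.01 and 0.02. The part of these differences in the values of the microglia genes was not tested.

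Markers of the meninges were highest in 2 ASIC1a-/- libraries, and at ZT1 they were higher in the ASIC1a-/- group as a whole. Their 9 genes summed to 785 to 3190 TPM in ASIC1a-/- and 773 to 1170 TPM in WT mice at ZT13, and to 936 to 4960 TPM in ASIC1a-/- and 748 to 938 TPM in WT mice at ZT1, where the median log2 fold change between genotypes was 1.35 with 0 of 9 called by edgeR, DESeq2 or limma-voom and 8 of 9 at an unadjusted p under 0.05. An unadjusted p under 0.05 was found for 7.0% of all tested genes at ZT1 and 3.74% at ZT13. At ZT13 0 of 9 meningeal markers had one. Their sum at that time had a median of 852 TPM for the ASIC1a-/- and of 886 TPM for the WT libraries. At ZT1 the median was 1350 TPM for the ASIC1a-/- and 812 TPM for the WT libraries. The lowest ASIC1a-/- library at ZT1, at 936 TPM, was close to the highest WT library, at 938 TPM. The highest libraries were ASIC1a-/- ZT1 replicate 4 and ASIC1a-/- ZT13 replicate 2, which were also the highest in border macrophage markers, at 19.6 and 17.7 TPM. By CPM, ASIC1a-/- ZT1 replicate 4 had the highest *C1qa*, *C1qc*, *Csf1r* and *Aif1* of all 16 libraries. By TPM this held for *C1qa*, *C1qc* and *Csf1r* but not for *Aif1*, at 8.78 TPM there against 11.7 TPM in WT ZT1 replicate 1. Border macrophages express several of the members, and the 6 of 12 border macrophage markers above the filter had a median log2 fold change of 0.50 at ZT1, with *Mrc1*, the mannose receptor gene, at 1.08 (adjusted p = 0.68). The part of these cells in the differences between genotypes was not tested. Without both libraries the members' median log2 fold change at ZT1 was 0.10, with 8 of 9 above 0 and 2 of 9 at an unadjusted p under 0.05.

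The interaction asks whether the difference between times depends on genotype. It was called for 0 of 9 members, where 0.019% of tested genes were called, and 0 of 9 had an unadjusted p under 0.05, beside 3.91% of all genes. DESeq2 and limma-voom also called 0. For *Cx3cr1* it was -0.07 on the log2 scale with a 95% interval of -0.19 to 0.04, so that the larger value in ASIC1a-/- mice was not shown to differ from that in WT mice. For *C1qc* it was -0.18, with a 95% interval of -0.36 to 0.00 and an adjusted p of 1.00.

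The members were then compared from mouse to mouse, with the group means removed. Across the 36 pairs of members Pearson's r had a median of 0.204 and a range of -0.228 to 0.810, and 26 pairs were above 0. By permutation of the libraries within groups (100000 permutations, two-sided, Benjamini-Hochberg over 36 pairs), 1 pair was called. It was *C1qa* and *C1qb*, with r = 0.810 (permutation p = 0.00114, adjusted p = 0.041) and Spearman's rho = 0.862 (permutation p = 0.00069, adjusted p = 0.0248), and r = 0.816 once the 2 libraries farthest from the *C1qa* median were left out. That call did not hold on the log2(TPM + 1) scale, nor in most of the 16 analyses with 1 library left out. The other pairs of chain genes had r = 0.633 for *C1qa* and *C1qc* and r = 0.485 for *C1qb* and *C1qc*, with adjusted p of 0.215 and 0.598. *Cx3cr1* had r = -0.228 with *C1qa* (permutation p = 0.459), which was the lowest r of the 36.

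**Figure D5:**
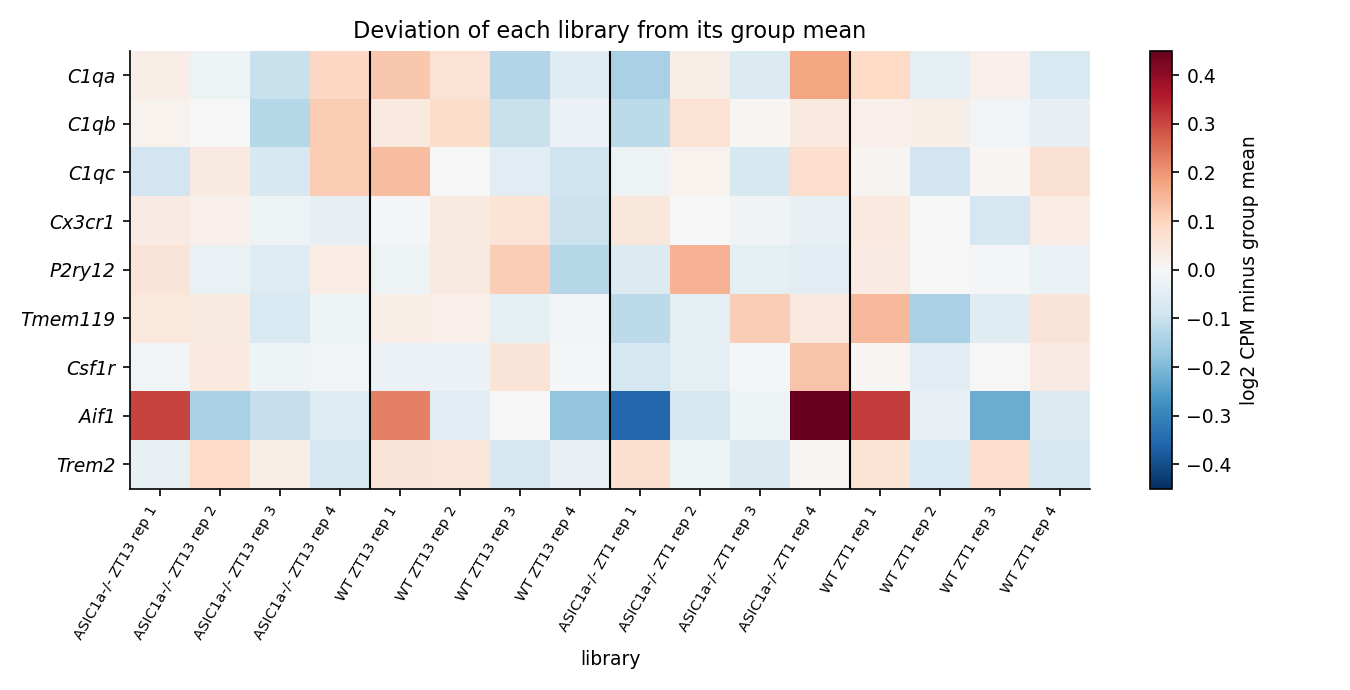
Deviation of each library (columns) from its group mean, in log2 CPM (colour scale from -0.45 to 0.45), for the 9 genes (rows), with black lines between the 4 groups. The rows of *C1qa* and *C1qb* share their pattern (r = 0.810), and *Aif1*, the gene with the fewest counts, has the widest deviations, up to 0.449 in ASIC1a-/- ZT1 replicate 4.

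The genes whose mouse-to-mouse pattern was most like the mean of the 9 members were ranked among 14957 tested genes with a mean of at least 1 CPM. The first were *Chpt1* (r = 0.897), *Calu* (0.895), *Arap2* (0.869), *Cox6b2* (0.864) and *Slc16a1* (0.848), then *Tm9sf3*, *Rnase4*, *Cops9*, *Nek7*, *Slc12a2*, *Arsk*, *Mgst1*, *Grin2a*, *Rps6ka5* and *Tmed5*, with r of 0.806 to 0.842. The 15 included 0 of the 29 other microglia-enriched genes, of which 28 were ranked and had a median r of 0.347 (range -0.479 to 0.617), beside a median of 0.011 over all ranked genes. Without ASIC1a-/- ZT1 replicate 4, 2 of the 15 stayed among the first 15. The values describe 16 libraries and share their depth and scaling. Picking the highest of 14957 values over so few libraries gives a high r by itself, and no test was run on them. The mean was taken over unscaled deviations, so *Aif1*, with the widest deviations of the 9 members, weighed most in it. In ASIC1a-/- ZT1 replicate 4 *Aif1* was at 0.449 and the mean of the 9 at 0.094.

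The spread between mice within a group was small for most members. As a coefficient of variation it was 3.42% for *Cx3cr1* and 3.89% for *Csf1r*, 4.87 to 7.47% for *Trem2*, *C1qb*, *P2ry12*, *C1qc*, *Tmem119* and *C1qa*, and 18.1% for *Aif1*. Counting error alone would give 2.66% for *Cx3cr1*, 2.01% for *Csf1r* and 6.51% for *Trem2*. The time-of-day difference of *Cx3cr1*, 18.9% lower in ASIC1a-/- and 14.6% lower in WT mice, was larger than this spread, while the difference of *Csf1r*, 5.43% lower over both genotypes, was close to it.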

How the data were processed

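Libraries were processed by the authors. The submitters' notes name cutadapt 1.8, STAR 2.5.3a, HTSeq 0.9.1 and RSEM 1.2.31, and GRCm38 and mm9 as builds. The labels and the methods name different extraction and library kits. The expected counts deposited by the authors are RSEM estimates per gene, not normalized, and 4.85% of those values were not whole. The TPM values were deposited by the authors as RSEM wrote them, scaled by effective length and library total, with a posterior standard deviation of each count beside them. Symbols came from GENCODE M21 (GRCm38), which named 55141 of 55401 identifiers.

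For testing, the expected counts were made whole by rounding and fitted in edgeR 4.0.16 (TMM, quasi-likelihood F test, 4 group means, R 4.3.3) on the 15808 genes at or above 1 CPM in at least 1 library, with Benjamini-Hochberg adjustment over all of them within each of 7 comparisons and a threshold of 0.05. Intervals of 95% used the residual and prior degrees of freedom (12 and 5.83). Log2 CPM used a prior count of 2. The 24 pairs of libraries within a group were all apart by more than sampling noise, at 2.91 to 9.78 for chi-square over degrees of freedom. The study describes 4 animals per condition, 1 for each library. The alternatives, 30 in number, included other filters and scalings, DESeq2 1.42.0, limma-voom (limma 3.58.1), log2(TPM + 1), log2(TPM + 0.1), a replicate block and the omission of each library. Genes named were all 9 members, the called genes and up to 2 with the smallest p of each other list, *Asic1*, and the 15 genes most like the members. The members and the 20 other lists were chosen with earlier results of these data known. Correlations used Python 3.11.15 with scipy 1.17.1, and figures matplotlib 3.10.9. Promoter sequences are from RefSeq (GRCm38.p6).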

Additional observations from a re-analysis of the deposited data

Results flagged for a closer look

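Among the 36 groups of 4 libraries formed by 9 genes and 4 groups, 2 held a library far from the other 3 by Dixon's ratio of the gap to the range against its 95% critical value. Chance gives about 1 in 20. *P2ry12* was at 26.3 CPM in ASIC1a-/- ZT1 replicate 2, against 22.6 to 22.9 CPM in the other 3 libraries of that group (ratio 0.928). *Csf1r* was at 70.3 CPM in ASIC1a-/- ZT13 replicate 2, one of the libraries high in meningeal markers, against 67.3 to 67.7 CPM in the others (ratio 0.864). The cause was not tested.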

How the results depend on the processing

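The lower *Cx3cr1* at ZT13 was called in both genotypes and over both under every alternative. The second member called over both genotypes, *Csf1r*, was lost, leaving 1 of 9 called, with no filter on low counts, library size only, log2(TPM + 1) with and without the filter, log2(TPM + 0.1), an unadjusted p under 0.005, and without both libraries high in meningeal markers. With 1 library left out, 1 to 2 members were called over both genotypes. The legend of the paper's heat map gives a cut-off of p under 0.005. An unadjusted p under 0.005 by edgeR was met by 1 member, *C1qc*, between genotypes at ZT1 and over both times, in place of 0. The share of all tested genes that met it was not computed, so this count does not set the members apart from other genes. The number of called pairs of members was 0 on the log2(TPM + 1) scale, in place of 1, and 0 to 1 with 1 library left out. The cause of these changes was not tested. Of 1863 log2 fold changes of the members under the alternatives 41 changed sign, and 0 of those were of called values. Counts limit *Aif1* most, at 65 to 115 per library.

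Replicate numbers did not pair the libraries. The correlation of same-numbered libraries had a median of 0.0148 (range -0.349 to 0.234), and 4 of 16 libraries correlated best with a library of their own number. With the replicate number as a block, 2 members were called between times over both genotypes, 1 within each genotype and 0 between genotypes.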
